A study of Mus musculus with 2 samples.

Results

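The free fatty acid receptors are 4 G protein-coupled receptors of the cell surface, encoded by Ffar1, Ffar2, Ffar3 and Ffar4. They were taken by gene symbol, 4 of the 46984 features counted, and were followed across groups of pancreatic islet cells. FFAR1 and FFAR4 bind medium- and long-chain fatty acids, such as those released from fat, while FFAR2 and FFAR3 bind the short-chain acids acetate, propionate and butyrate, which come largely from gut bacteria. In the islet FFAR1 is best known from beta cells, where it signals through the G protein Gq, phospholipase C and calcium and amplifies insulin secretion when glucose is high. FFAR4 is known from delta cells, where its activation reduces somatostatin release. FFAR3 couples to Gi, which lowers cyclic AMP, and FFAR2 to Gi and Gq.

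The study compared single islet cells of mice aged 1 month whose endocrine cells had or lacked intact Isl1 by design; ISL1 is a homeodomain protein that islet cells need to mature. Control mice carried Neurod1 Cre/+ and Isl1f/+, so they too had the Cre allele and 1 floxed Isl1 allele, and Isl1CKO mice carried Neurod1 Cre/+ and Isl1f/f. In both, cells of 3 pooled animals were sorted for the tdTomato reporter and captured with the 10x 3′ kit after a dissociation that contained actinomycin D, a blocker of transcription. Cre driven from Neurod1 acts in endocrine cells at large, not in 1 hormone type.

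There was 1 library per genotype, with 48685758 UMIs (unique molecular identifiers, each standing for 1 captured molecule) in control and 86086781 in Isl1CKO. After filtering, 3900 control and 7642 Isl1CKO endocrine cells remained, with median depths of 8902.5 and 8481 UMIs, and 7 barcodes occurred in both libraries. No difference below has a replicate check, so no p-value is given. The 95% intervals in parentheses cover counting error only, since cells are not replicates. Levels are CPM, a gene's UMIs scaled to a common group total (counts per 1e6, with TMM scaling to control endocrine cells). How well each transcript is captured was not tested, so levels of different genes can be set side by side only roughly. A gene was counted as higher or lower when it differed by 2-fold or more, its interval excluded equality, and it reached 5 CPM on 1 side. Isl1 itself stood at 303 CPM in control and 246 CPM in Isl1CKO endocrine cells, and without TMM scaling at 303 and 352 CPM. Counts of transcript 3′ ends do not check a deletion elsewhere in the gene, so the genotypes rest on the labels. By the labels only the Isl1CKO pool included females, but female and male cells, told by Xist and by Y-linked UMIs, were in both libraries: 903 and 1614 in control, and 5088 and 1552 in Isl1CKO, with 1383 and 1002 cells of unknown sex. A cell counted as female with any Xist UMI and no Y-linked UMI, and as male in the reverse case. How many of these calls free RNA made wrong was not measured.

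Ffar1, Ffar2 and Ffar3 lie together on mouse chromosome 7 and Ffar4 lies alone on chromosome 19 (GRCm38, GENCODE vM21). Ffar2 spans 30818348 to 30823775, Ffar3 30854330 to 30856178 and Ffar1 30857390 to 30861564, all on the minus strand, so that Ffar1 is the first and Ffar2 the last in the direction of transcription. Only 1211 bases separate Ffar1 from Ffar3, and 30554 bases separate Ffar3 from Ffar2. Ffar4 spans 38097071 to 38114263 on the plus strand with 3 exons, and Ffar1 is annotated as 1 exon. No annotated gene overlaps any of the 4.

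The bases just before the annotated start of Ffar1 and of its neighbour Ffar3 are shown because these genes share their highest level, in insulin cells, and those before Ffar4 because its order over the cells is another. The sequences are from the RefSeq table for GRCm38.p6, written 5′ to 3′ on the strand of the gene, at chr7:30861565-30861720 for Ffar1, chr7:30856179-30856428 for Ffar3 (inside the stretch between the 2 genes) and chr19:38096829-38097070 for Ffar4. Capitals mark matches, on either strand, to 4 motifs that do not overlap each other here. The E-box that NEUROD1 can bind is CAGATG. A homeodomain core is TAATTA. The core bound by GATA factors is GATAAG. The cyclic AMP response element is TGACGTCA.
Ffar1: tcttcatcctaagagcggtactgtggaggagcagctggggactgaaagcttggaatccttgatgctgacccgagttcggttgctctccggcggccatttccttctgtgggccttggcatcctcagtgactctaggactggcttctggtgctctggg
Ffar3: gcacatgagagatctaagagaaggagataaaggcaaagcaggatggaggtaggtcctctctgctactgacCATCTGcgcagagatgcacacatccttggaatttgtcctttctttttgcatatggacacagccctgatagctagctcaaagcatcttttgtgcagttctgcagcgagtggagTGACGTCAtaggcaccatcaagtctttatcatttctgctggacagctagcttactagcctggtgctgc
Ffar4: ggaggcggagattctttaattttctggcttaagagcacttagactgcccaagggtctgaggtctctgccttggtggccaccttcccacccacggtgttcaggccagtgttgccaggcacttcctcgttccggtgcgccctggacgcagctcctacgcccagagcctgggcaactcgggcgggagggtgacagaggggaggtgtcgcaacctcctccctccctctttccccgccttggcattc
Ffar3 held 1 E-box, as its reverse complement, beginning 180 bases before its start, and 1 cyclic AMP response element, 68 bases before it. Over windows of 250 bases, 14.5% of 32817 RefSeq promoters held the E-box, 1.55% the response element, 4.85% the homeodomain core and 6.55% the GATA core. The windows of Ffar1 (156 bases), Ffar4 (242 bases) and Ffar2 (250 bases, not shown) held none of the 4 motifs. A match is a run of letters and not a known site.

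In control cells the receptors divided by hormone. Control endocrine cells were grouped by which of glucagon, somatostatin, pancreatic polypeptide and insulin took at least 1% of a cell's UMIs. This gave 1537 glucagon-only, 212 somatostatin-only, 426 pancreatic polypeptide-only and 178 insulin-only cells, 1459 cells with 2 or more hormones and 88 with none. Ffar1 was highest in insulin cells and not found in somatostatin-only cells, Ffar4 was highest in somatostatin cells and low in insulin cells, Ffar2 was spread over all of them, and Ffar3 was rare.

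**Figure D1:**
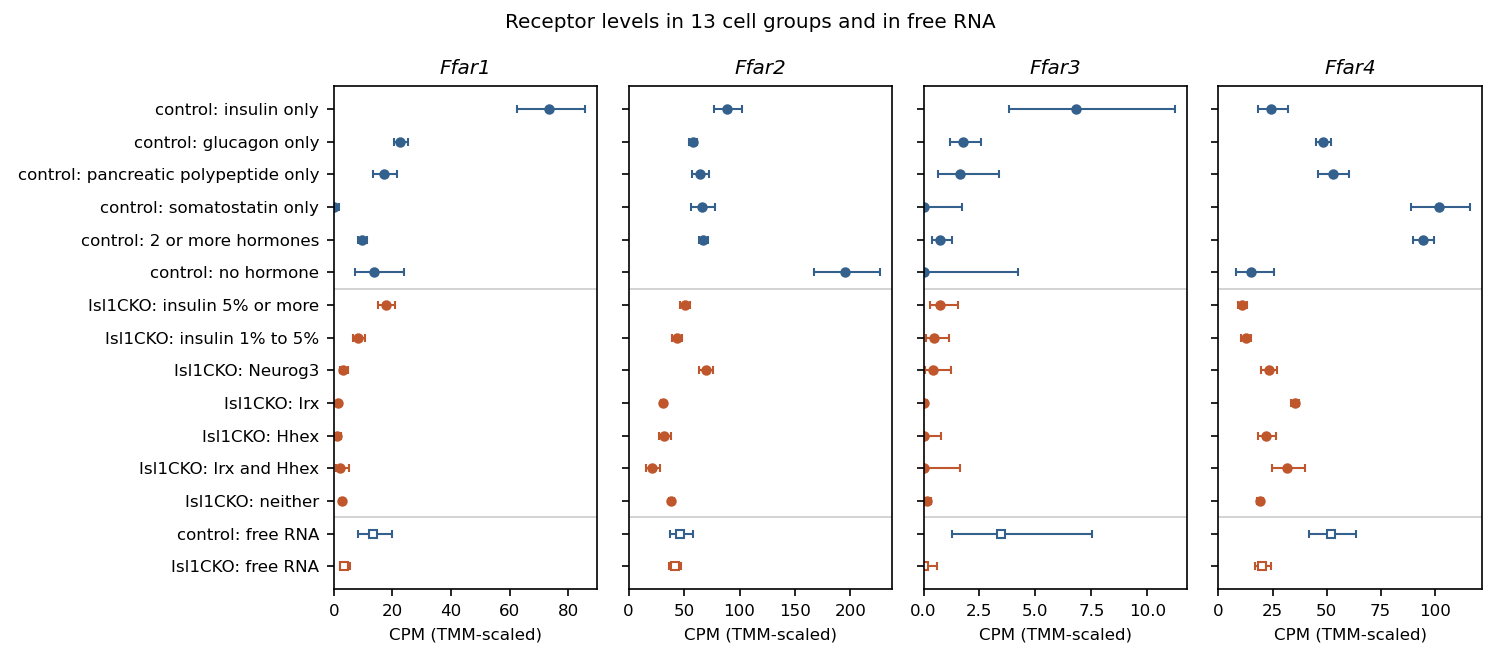
Level of each receptor (x axis, TMM-scaled CPM, a separate scale per gene) in 6 control and 7 Isl1CKO cell groups and, as open squares, in free RNA from barcodes with 10 to 100 UMIs. Points are summed cells of 1 library and bars 95% counting intervals: Ffar1 peaks at 73.4 CPM in control insulin-only cells, and Ffar4 at 102 CPM in somatostatin-only cells.

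Ffar1, the long-chain receptor linked to insulin secretion, stood at 73.4 CPM (62.6 to 85.6) in insulin-only cells, from 162 UMIs. In glucagon-only cells it stood at 22.7 CPM (20.4 to 25.2) and in pancreatic polypeptide-only cells at 17.1 CPM (13.4 to 21.5), and these 2 intervals overlap. Somatostatin-only cells had 0 Ffar1 UMIs, for which 3 counts would be 1.40 CPM, while free RNA of the same library held Ffar1 at 13.3 CPM (8.41 to 19.9). A level in free RNA is thus not the level that it adds to a cell. The insulin-only level was 3.23-fold that of glucagon-only cells, a log2 ratio of 1.69 (1.41 to 1.96). In that comparison 8.33% of 9743 measured genes were higher by the same rule. Insulin transcripts filled 62.5% of the UMIs of insulin-only cells, and the scale matters there: without TMM scaling every log2 ratio in this comparison is lower by 0.79, and that of Ffar1 is 0.90, under 2-fold. With its 0 counts set to 3, Ffar1 in somatostatin-only cells was 16.2-fold lower than in glucagon-only cells, where 7.13% of 9875 genes were lower.

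Ffar4, the other long-chain receptor, ran in nearly the opposite order. It stood at 102 CPM (88.8 to 116) in somatostatin-only cells, 52.9 CPM (46.2 to 60.2) in pancreatic polypeptide-only cells, 48.5 CPM (45.1 to 52.1) in glucagon-only cells and 24.5 CPM (18.4 to 31.9) in insulin-only cells. The pancreatic polypeptide and glucagon intervals overlap, and the others do not. Somatostatin-only cells were above glucagon-only cells by a log2 ratio of 1.07 (0.85 to 1.29), where 8.72% of genes were higher. With a hormone limit of 5% in place of 1% the ratio was 0.96, just under 2-fold. Insulin-only cells were below glucagon-only cells by a log2 ratio of -0.99 (-1.41 to -0.59), just short of the 2-fold limit, and at -1.77 without TMM scaling.

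Most somatostatin cells of the control library also passed the limit for pancreatic polypeptide, and they too held much Ffar4 and little Ffar1. This split was made after the values were seen. The 962 cells with somatostatin and pancreatic polypeptide held 1030 Ffar4 UMIs, an unscaled 137 CPM (129 to 146) that equals the unscaled 137 CPM of somatostatin-only cells, and 5 Ffar1 UMIs, 0.667 CPM (0.216 to 1.56). They had at least 1 Ffar4 UMI in 58.9% of cases and a Ffar1 UMI in 0.52%. The 339 cells with glucagon and pancreatic polypeptide, in contrast, held Ffar1 at 25.5 CPM (20.7 to 31.1) and Ffar4 at 66.0 CPM (58.1 to 74.7), which is near the glucagon-only levels of 23.9 and 51.0 CPM on the same unscaled basis.

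Ffar2, the short-chain receptor with more UMIs, differed little between the single-hormone groups. It stood at 88.8 CPM (76.8 to 102) in insulin-only, 66.4 CPM (55.9 to 78.3) in somatostatin-only, 64.1 CPM (56.7 to 72.2) in pancreatic polypeptide-only and 58.0 CPM (54.3 to 61.9) in glucagon-only cells. The last 3 intervals overlap. Without TMM scaling the insulin-only level was below the glucagon-only one, at a log2 ratio of -0.17 in place of 0.62. Free RNA of the control library held Ffar2 at 46.7 CPM (37.1 to 58.0), close to the lowest of these levels. The 88 cells with no hormone stood apart at 195 CPM (167 to 227), and 80 of them lay in cluster 6, a cluster whose 3 leading genes, taken from its Isl1CKO cells, were Fam101a, Vsig2 and Neurog3, the last a transcription factor of endocrine progenitors. Among the marker lists it had most from the duct list, with Krt7 and Spp1, and it was given no name.

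Ffar3, the Gi-coupled short-chain receptor, was close to the limit of detection. Its 61 UMIs in control endocrine cells came to 1.53 CPM (1.17 to 1.97). It reached 5 CPM in insulin-only cells alone, with 15 UMIs and 6.80 CPM (3.80 to 11.2), against 1.78 CPM (1.19 to 2.58) in glucagon-only, 1.64 CPM (0.66 to 3.37) in pancreatic polypeptide-only and 0 UMIs in somatostatin-only cells. The insulin-only level was above the glucagon-only one by a log2 ratio of 1.93 (0.92 to 2.88). It fell short of the rule at 1.14 without TMM scaling, where the level is under 5 CPM, and at 1.30 with cells thinned to 3000 UMIs. Its order over the groups resembles that of Ffar1.

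The genes that flank the chromosome 7 group were at or near 0 in these cells. Cd22, 3837 bases beyond Ffar1, stood at 0.478 CPM in control endocrine cells, and Krtdap, 27250 bases beyond Ffar2, at 0. Rbp4, which encodes a retinol-binding protein and is a marker of delta cells, lies 2365 bases beyond the end of Ffar4 on the other strand. It stood at 7150.2 CPM in somatostatin-only, 1590.1 CPM in glucagon-only, 542 CPM in pancreatic polypeptide-only and 399 CPM in insulin-only cells, so its highest and lowest groups among these 4 are those of Ffar4.

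Shares of cells with at least 1 UMI put Ffar1 and Ffar4 in the same order of groups at the top and bottom, and set glucagon and pancreatic polypeptide cells further apart for Ffar1. After thinning each cell to 3000 UMIs, Ffar1 was found in 15.03% (10.1 to 21.2) of insulin-only, 7.80% (6.48 to 9.28) of glucagon-only and 2.86% (1.48 to 4.94) of pancreatic polypeptide-only cells. In somatostatin-only cells it was found in 0 of 212 even before thinning, at a median depth of 7432.5 UMIs, where 3 cells would be 1.42%. This sets no limit on cells that express the gene. The pancreatic polypeptide share of Ffar1 lies below the glucagon share, and the log2 ratio from thinned cells was -1.07, past 2-fold, against -0.41 at full depth. Ffar4 was found in 35.6% (29.1 to 42.5) of somatostatin-only and 6.36% (3.22 to 11.1) of insulin-only cells. Before thinning, Ffar1 was in 51.1% of insulin-only cells, which had a median of 19970.5 UMIs, and in 18.6% of glucagon-only cells, with a median of 9359.

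**Figure D2:**
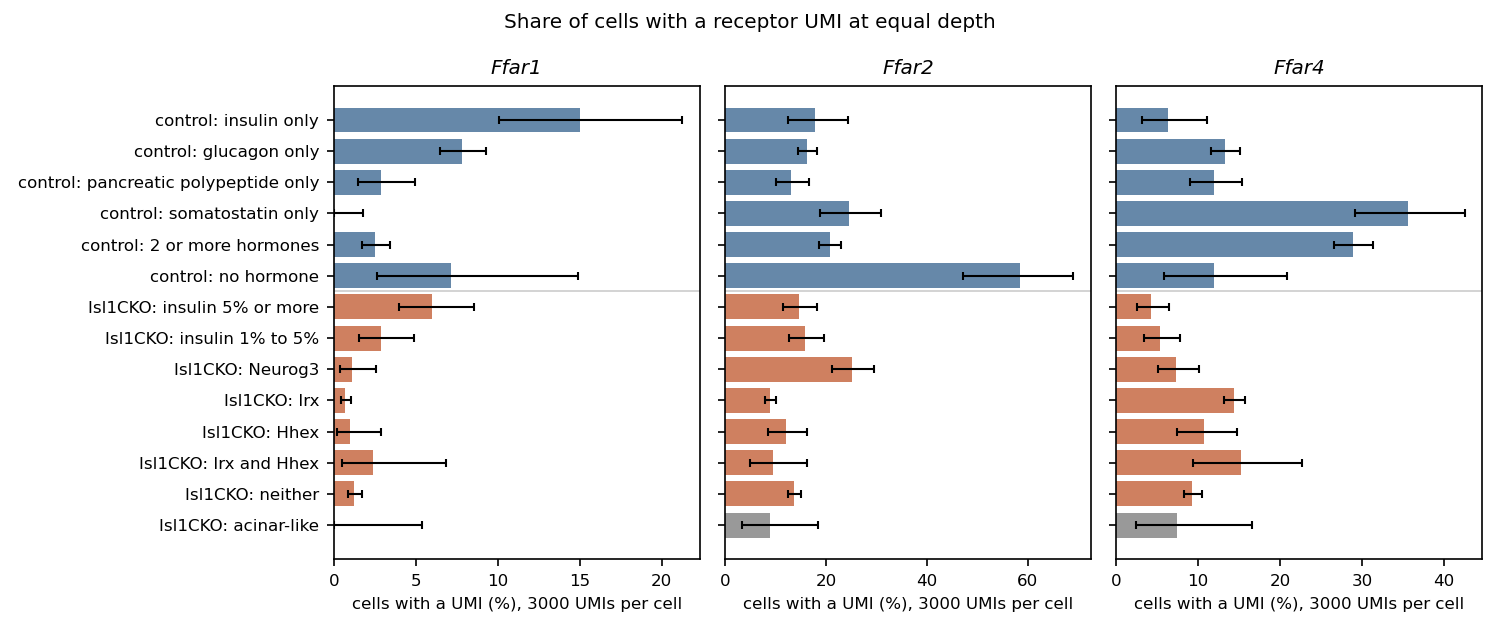
Share of cells (x axis, percent) with at least 1 UMI of Ffar1, Ffar2 or Ffar4 after each cell was thinned to 3000 UMIs, in 13 endocrine cell groups and in Isl1CKO acinar-like cells in gray. Bars are shares with exact 95% binomial intervals: Ffar1 was in 15.03% of control insulin-only cells and 0% of acinar-like cells, and Ffar2 and Ffar4 were in 8.96% and 7.46% of acinar-like cells.

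Acinar-like cells, which make digestive enzymes, were set beside the endocrine cells. In the Isl1CKO library 82 such cells with a median of 7053 UMIs had Ffar1 in 0 cases, Ffar2 in 18.3% (10.6 to 28.4) and Ffar4 in 20.7% (12.6 to 31.1). Thinned to 3000 UMIs, 67 of them had Ffar2 in 8.96% (3.36 to 18.5) and Ffar4 in 7.46% (2.47 to 16.6). Thinned shares in Isl1CKO endocrine cells were 12.7% (11.9 to 13.5) for Ffar2 and 10.7% (10.0 to 11.4) for Ffar4, inside those wide intervals. Low levels of Ffar2 and Ffar4 in that library are thus not told apart from those of acinar-like cells. The Ffar2 share pools the sexes, and that of male cells, given below, lies above the interval. The acinar-like cells came from the same tdTomato sort, and doublets remain in that library. Whether they lack the receptors was not tested. Control had 2 acinar-like cells, too few to compare.

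In Isl1CKO cells Ffar1 was again highest where insulin was. Glucagon filled 0.124% of the UMIs of this library's endocrine cells, against 17.6% in control, so hormones other than insulin could not define groups. The cells were grouped by insulin at 5% or more of UMIs (463 cells), insulin at 1% to 5% (462), and, below that, a UMI of Neurog3 (461), of the alpha cell factors Irx1 or Irx2 (2809), of the delta cell factor Hhex (303), of both kinds (125), or neither (3019). Ffar1 stood at 17.8 CPM (15.2 to 20.8) with insulin at 5% or more, 8.39 CPM (6.59 to 10.5) at 1% to 5%, 3.20 CPM (2.03 to 4.80) with Neurog3 and 2.74 CPM (2.26 to 3.30) with neither. With Irx it stood at 1.54 CPM (1.18 to 1.97), with Hhex at 1.06 CPM (0.35 to 2.48) and with both at 2.24 CPM (0.73 to 5.22). The first 3 intervals do not overlap one another, and from Neurog3 downward neighbours in the order do. Free RNA of this library held Ffar1 at 3.60 CPM (2.26 to 5.45), and only the insulin groups stood above it. How much free RNA enters a cell was not measured, so this does not show the other groups to be background.

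Over the cells with neither marker, the high insulin group had Ffar1 at a log2 ratio of 2.699 (2.34 to 3.06), where 1.63% of 9524 genes were higher, and the 1% to 5% group at 1.61 (1.17 to 2.05), where 0.748% of 9488 were. Ffar1 was the member that passed the rule in these 2 comparisons. In female cells the high insulin ratio was 2.29 and in male cells 2.32, so both sexes showed it. The 1% to 5% ratio was 1.23 in male cells, which passed, and 1.72 in female cells, which did not, since neither level reached 5 CPM.

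Ffar4 in Isl1CKO was highest in cells with Irx1 or Irx2 UMIs, not with Hhex. It stood at 35.4 CPM (33.6 to 37.2) with Irx, 31.8 CPM (24.8 to 40.1) with both, 23.2 CPM (19.8 to 27.0) with Neurog3, 22.1 CPM (18.1 to 26.8) with Hhex and 19.1 CPM (17.8 to 20.5) with neither. The insulin groups were lowest, at 10.9 CPM (8.88 to 13.3) and 12.7 CPM (10.5 to 15.3). Irx over neither gave a log2 ratio of 0.89 (0.76 to 1.02), and Hhex over neither 0.21 (-0.09 to 0.51), both short of 2-fold. In male cells alone the Irx ratio passed it, at 1.05 (0.77 to 1.34), and in female cells it was 0.90 (0.75 to 1.06). Over all the alternatives tried, the Irx ratio ran from 0.63 to 1.05 and the Hhex ratio from -0.11 to 0.92. The low place of Ffar4 in insulin cells was thus seen in both libraries. Its high place in somatostatin cells had no counterpart among Hhex cells at the main settings, though the Hhex ratio depends on the setting.

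Ffar2 in Isl1CKO ranged from 21.0 CPM (15.4 to 28.0) in cells with both Irx and Hhex to 69.5 CPM (63.5 to 75.9) with Neurog3. The Neurog3 group was above the cells with neither marker by a log2 ratio of 0.85 (0.70 to 1.00), and by 1.26 when 2 UMIs of a marker were required. Of the Neurog3 cells 42.1% lay in cluster 6, where unscaled Ffar2 was 184 CPM in Isl1CKO and 371 CPM in control cells, and the clusters were made from all genes, Ffar2 included. The Neurog3 ratio was smaller within each sex, at 0.42 in female and 0.42 in male cells, and the groups differed in sex: 58.9% of Neurog3 cells of known sex were female, against 80.3% of those with neither marker. Ffar3 had 22 UMIs in all 7642 cells, 11 of them in the 925 cells with insulin at 1% or more.

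Between the genotypes the long-chain receptors stood lower in Isl1CKO. Over all endocrine cells Ffar1 went from 18.9 CPM (17.6 to 20.3) in control to 4.09 CPM (3.71 to 4.48), and Ffar4 from 68.3 CPM (65.7 to 70.9) to 25.4 CPM (24.5 to 26.4). The log2 ratios were -2.21 (-2.38 to -2.04) and -1.43 (-1.50 to -1.35), beside 5.85% of 9913 measured genes lower by 2-fold or more. Ffar2 went from 68.3 CPM (65.7 to 70.9) to 40.1 CPM (38.9 to 41.3), a log2 ratio of -0.77 (-0.84 to -0.70), short of the limit. Ffar3 went from 1.53 to 0.201 CPM and was below the level needed for a call in both. In summed cells, fewer cells of a type and less RNA per cell cannot be told apart, and the libraries differed in hormone make-up and sex. Without TMM scaling all log2 ratios are higher by 0.52: Ffar1 then stood at -1.69, and Ffar4 at -0.91 was no longer 2-fold lower.

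**Figure D3:**
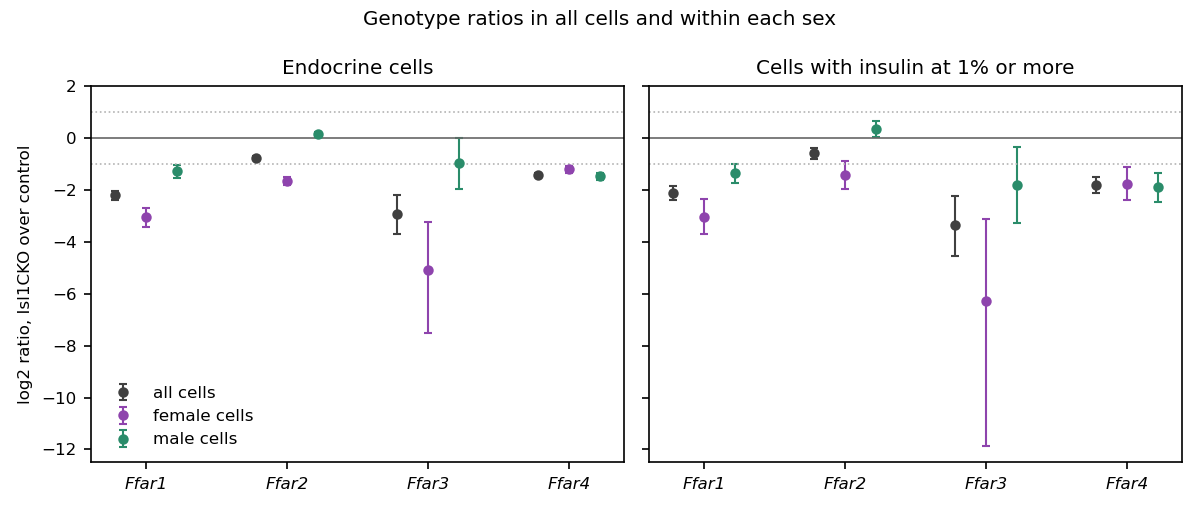
Log2 ratio of Isl1CKO over control (y axis) for each receptor in all endocrine cells and in cells with insulin at 1% or more, for all cells, female cells and male cells. Points are ratios of summed UMIs, bars exact 95% counting intervals and dotted lines 2-fold: Ffar2 lies at -1.66 in female and 0.14 in male endocrine cells, while Ffar4 is at -1.21 and -1.49.

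Cells that contained insulin in both libraries showed the same order of change. In control 278 cells and in Isl1CKO 925 cells had insulin at 1% or more of UMIs, though insulin filled 53.2% of the UMIs of the former and 12.5% of the latter, and different clusters held them: 89.3% of control insulin-only cells lay in cluster 13, and the high insulin Isl1CKO cells lay in clusters 8 (56.4%) and 10 (41.0%). Of 10 beta cell markers, cluster 13 was enriched for 9 over the other control cells. Cluster 10 was enriched for 7 and cluster 8 for 3 over the other Isl1CKO cells, so these counts are not on 1 scale. Neither Isl1CKO cluster was enriched for Mafa, and cluster 8 was not for Pdx1 or Slc2a2. A marker without enrichment can still be present. Of the 278 control cells 178 had insulin only, and the others also passed the limit for another hormone. Ffar1 went from 58.1 CPM (50.4 to 66.6) to 13.4 CPM (11.8 to 15.3), and Ffar4 from 42.1 CPM (35.5 to 49.4) to 12.0 CPM (10.4 to 13.7). Insulin-only control cells held Ffar1 at 73.4 CPM and Ffar4 at 24.5 CPM. Against them the difference would be larger for Ffar1 and smaller for Ffar4. The log2 ratios were -2.11 (-2.39 to -1.83) and -1.81 (-2.12 to -1.50), and that of Ffar3, from 22 and 11 UMIs, -3.35 (-4.54 to -2.24), so 3 of the 4 members were lower, with 6.84% of 9776 genes lower. Ffar2 was not, at -0.59 (-0.79 to -0.38). Without TMM scaling these ratios are higher by 1.01, which left Ffar1 at -1.10, put Ffar4 at -0.80 and Ffar3 at -2.34 outside the rule, and turned Ffar2 to 0.42.

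Sex divided Ffar2 and Ffar1 in the Isl1CKO library, and not Ffar4. Ffar2 stood at 17.5 CPM (16.5 to 18.5) in female and 81.7 CPM (78.4 to 85.1) in male Isl1CKO cells, a log2 ratio of female over male of -2.23 (-2.33 to -2.12). Ffar1 stood at 1.84 CPM (1.53 to 2.19) and 8.16 CPM (7.15 to 9.28), a ratio of -2.15 (-2.48 to -1.83). Ffar4 stood at 26.0 CPM (24.8 to 27.2) and 23.6 CPM (21.9 to 25.5), a ratio of 0.14 (0.01 to 0.27). In this comparison 6.05% of 9727 genes were lower in female cells, and its ratios hardly depend on scaling, since leaving out TMM shifts them by -0.01.

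Control cells showed little of this, though wrong sex calls would narrow a difference and their share was not measured. Ffar2 stood at 55.0 CPM in female and 74.0 CPM in male control cells, a log2 ratio of -0.43 (-0.58 to -0.28), Ffar1 at 15.3 and 19.9 CPM, a ratio of -0.38 (-0.67 to -0.10), and Ffar4 at 60.1 and 66.1 CPM, a ratio of -0.14 (-0.29 to 0.01). None of the 4 members and 0.379% of 9505 genes were lower in female control cells by the rule.

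**Figure D4:**
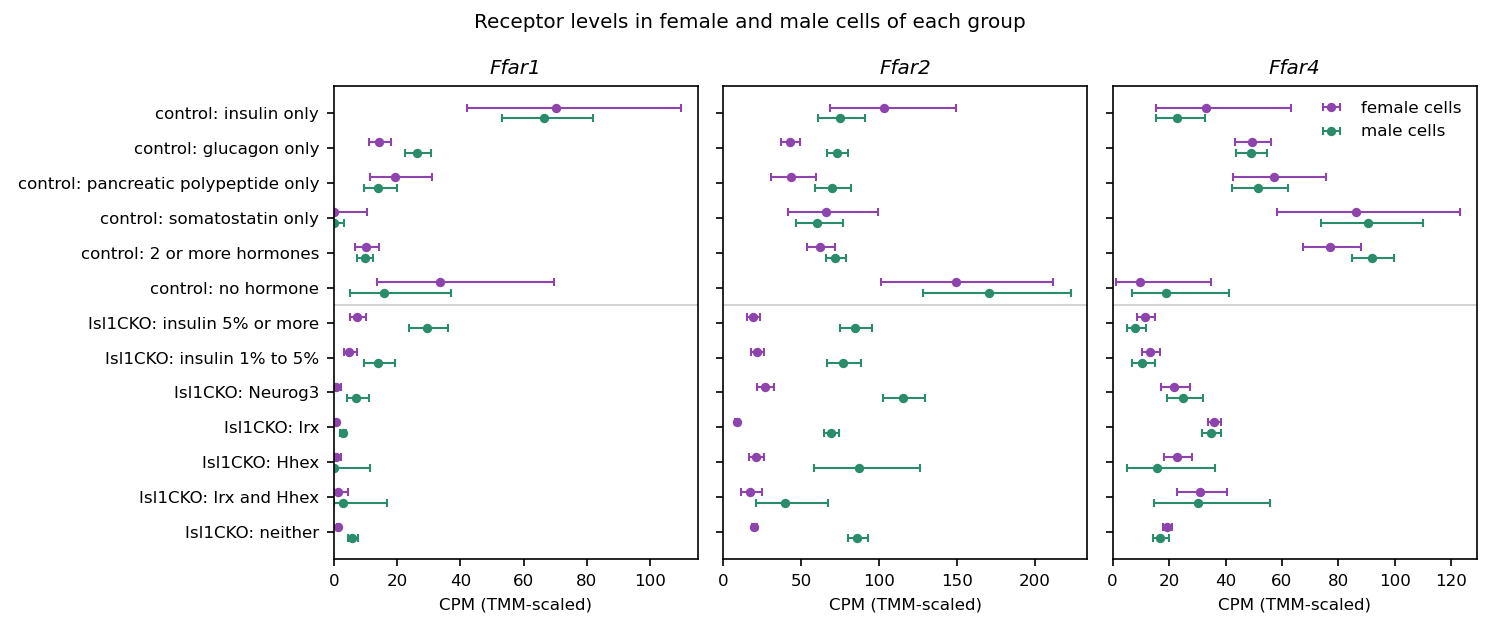
Level of Ffar1, Ffar2 and Ffar4 (x axis, TMM-scaled CPM) in female and male cells of each of 13 groups, with 95% counting intervals. In each Isl1CKO group Ffar2 is higher in male cells, from 39.4 against 17.5 CPM to 115 against 26.7 CPM, while the Ffar4 intervals of the sexes overlap in each Isl1CKO group.

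The difference in Ffar2 was present in each of the 7 Isl1CKO groups. Cells with Irx held Ffar2 at 8.89 CPM (7.74 to 10.2) if female and 69.3 CPM (64.6 to 74.3) if male, a log2 ratio of -2.96, which was the largest. In the other groups the ratio lay between -1.17, from 29 and 13 UMIs in cells with both Irx and Hhex, and -2.16 in the high insulin group. Thinned to 3000 UMIs, 6.49% (5.82 to 7.21) of female and 28.9% (26.7 to 31.3) of male Isl1CKO cells had a Ffar2 UMI. The female share lies inside the interval of acinar-like cells, so Ffar2 in female Isl1CKO cells as a whole is not told apart from those cells. The female level is below the 41.7 CPM of free RNA. How much free RNA enters a cell was not measured, so this sets no background level. It was uneven among the female clusters, at 41.4, 32.7 and 31.9 unscaled CPM in clusters 1, 4 and 8 and at 11.9 and 13.8 in clusters 2 and 5, and female cells with Irx stood below female cells with neither marker by a log2 ratio of -1.17 (-1.40 to -0.94). Without cluster 6 the ratio was -2.05.

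Ffar1 differed between the sexes in the insulin groups too. With insulin at 5% or more it stood at 7.27 CPM (5.00 to 10.2) in female and 29.5 CPM (23.9 to 36.0) in male cells, and at 1% to 5% at 4.89 CPM (3.16 to 7.22) and 13.9 CPM (9.69 to 19.4). In control insulin-only cells female and male levels were alike within counting error, at 70.2 CPM (42.2 to 109.6) and 66.5 CPM (53.2 to 82.0). On the TMM scale male insulin cells of Isl1CKO still stood below these. The TMM factor was 0.616 for male control insulin-only cells and 1.16 for male Isl1CKO cells with insulin at 5% or more. Without TMM scaling the gap would be narrower, and whether the intervals would stay apart was not tested. Clusters of the Isl1CKO library were nearly of 1 sex: females made up 2.01%, 1.01% and 1.10% of the sexed cells in clusters 6, 7 and 10, and between 99.7% and 99.9% of those in clusters 1, 2, 4, 5 and 8. With 3 pooled animals, the sex of the cells, the animal and the cluster cannot be told apart.

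The genotype ratio of each receptor was therefore read within each sex. In female endocrine cells Ffar1 was lower at -3.05 (-3.41 to -2.70), Ffar2 at -1.66 (-1.81 to -1.50) and Ffar4 at -1.21 (-1.35 to -1.07), 3 members beside 9.87% of 9893 genes. In male cells Ffar1 was lower at -1.29 (-1.53 to -1.04) and Ffar4 at -1.49 (-1.62 to -1.35), 2 members beside 4.58% of 9775 genes, while Ffar2 was at 0.14 (0.04 to 0.24). With TMM scaling Ffar1 and Ffar4 were thus lower in Isl1CKO in both sexes, while Ffar2 was lower in female cells and did not pass the rule in male cells. TMM factors were 1.46 in Isl1CKO and 1.00 in control male cells, and 1.45 and 1.05 in female cells. A shift of 0.52, as over all endocrine cells without TMM, would put the male Ffar1 and Ffar4 ratios and the female Ffar4 ratio under 2-fold. The male ratio of Ffar2 is smaller than the shift of 0.52 that leaving out TMM gives over all endocrine cells, so its sign is not established, and the difference between the ratios of the sexes was not tested. Insulin cells gave -3.03 and -1.37 for Ffar1, -1.44 and 0.35 for Ffar2, and -1.77 and -1.89 for Ffar4 in female and male cells. Leaving out TMM shifts the ratios of all insulin cells by 1.01. A shift of that size would put the male Ffar1 ratio and both Ffar4 ratios under 2-fold.

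Immune cells also use these receptors, FFAR2 above all in neutrophils, so their markers are given beside it. None of the 6 neutrophil markers, among them S100a8, S100a9 and Cxcr2, had a UMI in the endocrine cells of either library. The 8 macrophage markers, of which 5 had UMIs in control and 7 in Isl1CKO endocrine cells, summed to 95.1 CPM in male and 50.4 CPM in female Isl1CKO cells and to 149.6 CPM in all control endocrine cells, Adgre1 being at 0 in all of them. Macrophage-like cells of Isl1CKO had these markers at 7977 CPM and Ffar2 at 21.1 CPM (10.1 to 38.9), below the 81.7 CPM of male endocrine cells. The 6 duct markers summed to 340 CPM in male and 233 CPM in female Isl1CKO cells, and their part in the result was not tested.

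Whether receptors met in the same cell was read from cells thinned to equal depth, beside the number that the product of their separate shares gives. Over control endocrine cells thinned to 3000 UMIs, 148 had Ffar2 and Ffar4, where the product gives 142.7, 38 had Ffar1 and Ffar2 (product 37.2), and 29 had Ffar1 and Ffar4 (product 38.7). In Isl1CKO cells 22 had Ffar1 and Ffar2 (product 13.3), but within one sex the 2 numbers were closer, 16 and 14.2 in male and 1 and 2.59 in female cells. At full depth 22 control cells had both Ffar1 and its neighbour Ffar3 (product 8.46), and 12 Isl1CKO cells did (product 0.864). Groups differ in both genes, and within insulin-only control cells 7 had both (product 7.16). Within glucagon-only cells 10 had both (product 5.02), and within high insulin Isl1CKO cells 5 (product 1.66). After thinning, the 22 control and 12 Isl1CKO cells fell to 0 and 1, so the pair could not be followed at equal depth. At full depth 71.3% of the control cells had a UMI of at least 1 receptor, against 48.0% in Isl1CKO, and 5 control and 4 Isl1CKO cells held all of them.

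Over the 13 groups Ffar1 and Ffar3 had a Pearson correlation of 0.84 in log2(CPM + 1), Ffar1 and Ffar2 one of 0.49, and Ffar1 and Ffar4 one of -0.24, as descriptions of groups that share 2 libraries and 1 scaling. The genes most like Ffar1 were Prune2 (0.92), Kat2a, Rassf4, Apex2 and T2 (0.89), and those most like Ffar3 were Ero1lb (0.93), an oxidase of protein folding in beta cells, Tpgs2, Aspscr1, RP23-210L10.3 and Atf5 (0.90). Those most like Ffar4 were Rrm2b (0.97), its neighbour Rbp4 (0.95), Ppfia2, Capsl and Frk (0.93), and those most like Ffar2 were Dph6 (0.94), Mat2a, Rph3al, Ogdh and Pfkl (0.92). Of the 5, a pseudocount of 0.1 in place of 1 kept 1 for Ffar1, 4 for Ffar2, 2 for Ffar3 and 3 for Ffar4, and the 6 control groups alone kept 1, 0, 0 and 2, so most of these names depend on the settings.

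Most measured genes of the pathways that the receptors feed or sense stayed within 2-fold between the genotypes. Of 12 measured genes of Gq and phospholipase C signalling, Prkcd and Itpr2 were higher in Isl1CKO endocrine cells and Itpr1 lower, with a median log2 ratio of 0.17 beside 0.07 over all measured genes. Itpr1, a calcium channel of the endoplasmic reticulum opened by inositol trisphosphate, went from 160.3 to 20.7 CPM, a log2 ratio of -2.95 (-3.02 to -2.88). Gnaq and Gna11, the Gq subunits, were at 0.29 and 0.04. Of 12 measured Gi and arrestin genes, Rgs2 was higher and Gnai1 and Rgs4 lower (median -0.06), where Gnai1 went from 102 to 44.2 CPM and Gnai2 from 346 to 254 CPM. Over all genes 6.76% were higher by the rule. Within each sex Itpr1, Itpr2 and Gnai1 passed again. Prkcd, Rgs2 and Rgs4 passed in female cells only, and stood at 0.72, 0.59 and -0.93 in male cells. In cells with insulin at 1% or more Itpr1, Prkcd and Rgs4 passed, with Plcb1 higher and Trpm5 lower. Itpr2, Gnai1 and Rgs2 did not pass there, at 0.81, -0.82 and 0.98. Control cell types differed too: Itpr1 stood at 232 CPM in glucagon-only and 37.2 CPM in insulin-only cells, and Itpr2 at 1.02 and 16.8 CPM. The part of cell make-up in these ratios was not tested.

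Of 5 other measured receptors of lipids and metabolites, Ptger3 was higher and Gpr119 lower. Gpr119, a receptor of lipid amides that also raises insulin secretion, went from 16.4 to 0.779 CPM. Its log2 ratio was -4.40 (-4.74 to -4.07), further than that of Ffar1. In control, Gpr119 stood at 27.2 CPM in glucagon-only and 2.72 CPM in insulin-only cells. Cells with insulin at 1% or more held 18 Gpr119 UMIs in control and 3 in Isl1CKO. Ptger3, a prostaglandin receptor, went from 1.56 to 37.2 CPM, 4.58 (4.21 to 4.96). In fatty acid uptake and activation Acsl1 was higher and Cd36 and Acsl6 lower of 12, and in oxidation Cpt1a, the carnitine transferase of the mitochondrial surface, was higher at 1.40 (1.25 to 1.56) and Hadh lower at -2.12 (-2.17 to -2.06) of 16. In triglyceride breakdown Lpl, Mgll and Lipa were higher of 6, with Lpl, the lipase that frees fatty acids from lipoproteins, going from 292 to 849.7 CPM. For the short-chain acids, Oxct1 and the monocarboxylate carrier Slc16a7 were lower of 4, Slc16a7 going from 6.16 to 0.513 CPM. Within each sex, Acsl1, Cd36 and Oxct1 passed in female cells only, and stood at 0.69, -0.77 and -0.51 in male cells. Mgll and Slc16a7 passed in male cells only, since they did not reach 5 CPM in female cells. The other genes named so far in this paragraph as higher or lower passed in both sexes. In cells with insulin at 1% or more Lipa did not pass, at 0.97, and Cd36, Mgll and Slc16a7 did not reach 5 CPM. The rest of the genes named so far passed there, and Pdk4 was also higher and Ppard lower.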

How the data were processed

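The deposited UMI counts per gene and barcode were made by the authors with STARsolo (STAR 2.7.3a) on GRCm38.p6, and Seurat 4.3.0.1 was also used, per the submitters' processing notes. Barcodes were kept from 1000 UMIs and 500 genes upward if mitochondrial transcripts took no more than 15%, 4219 in control and 8231 in Isl1CKO. Scrublet marked 249 control cells, which were removed, and 0 Isl1CKO cells, so it did not work there and doublets remain. At the control threshold it would have marked 360.

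Cells were clustered at resolution 1.0 with scanpy 1.11.5 and leidenalg 0.10.2 into 16 clusters, of which 2 non-endocrine and 1 of low UMI counts (47 control and 465 Isl1CKO cells) were left out. Counts were summed per group and scaled by TMM (edgeR 4.0.16, R 4.3.3), with DESeq2 1.42.0 size factors as an alternative. Intervals are exact Poisson, Clopper-Pearson or conditional binomial (scipy 1.17.1), and ratio steps were tested on simulated counts. The named genes were the 4 members, genes of 7 pathway lists at 5 CPM or more, the 5 genes most like each member and the nearest neighbours. Members, groups and lists were chosen with earlier results of these data known.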

Additional observations from a re-analysis of the deposited data

Results flagged for a closer look

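The log2 ratio of Ffar2 in Isl1CKO over control had opposite signs in the 2 sexes. Over endocrine cells it was -1.66 in female and 0.14 in male cells. Over cells with insulin at 1% or more it was -1.44 in female and 0.35 in male cells. The male values are under 2-fold and smaller than the shifts of 0.52 and 1.01 that leaving out TMM scaling gives in these comparisons, so their sign is not established. The difference between the sexes was not tested, because there was 1 library per genotype, and sex, animal and cluster cannot be told apart in the Isl1CKO library.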

How the results depend on the processing

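All values are log2 ratios. No paired analysis was possible because each genotype has 1 library and both carry the same single replicate number. Under the alternatives tried, 167 values of the genotype and sex comparisons stayed within counting error and 32 moved beyond it, and no called value changed sign. For Isl1CKO over control endocrine cells without TMM scaling, Ffar1 was -1.69, Ffar2 -0.25 and Ffar4 -0.91, and on totals without the hormone genes they were -2.43, -0.99 and -1.65. Female cells gave -3.05 for Ffar1, -1.66 for Ffar2, -5.07 for Ffar3 and -1.21 for Ffar4, and male cells -1.29, 0.14 and -0.98 for the first 3. Ffar2 was -0.97 with cells thinned to 3000 UMIs and -1.07 without cluster 6, which takes it past 2-fold. For insulin cells without TMM scaling, Ffar1 was -1.10, Ffar2 0.42 and Ffar4 -0.80, and thinning gave -0.82 for Ffar2 and -2.30 for Ffar4. Female insulin cells gave -3.03, -1.44 and -6.30 for Ffar1 to Ffar3, and male ones -1.37, 0.35 and -1.81. Female over male in control, thinned, was -0.27 for Ffar2, 1.30 for Ffar3 and -0.42 for Ffar4. Female over male in Isl1CKO was -2.48 for Ffar2 when thinned and -2.05 without cluster 6, where Ffar4 was 0.0049. The cause was not tested, except that leaving out TMM shifts all ratios of a comparison together. The alternatives without cluster 6, for insulin cells within a sex, and for the sex comparison were chosen after seeing the data.

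Other calls depended on a setting. In insulin-only over glucagon-only control cells, Ffar4 passed 2-fold at -1.03 with doublets kept, -1.02 with no cluster left out and -1.05 with a hormone limit of 0.5%, and Ffar1 in pancreatic polypeptide-only cells did at -1.07 when thinned. In Isl1CKO cells with insulin at 5% or more over neither marker, Ffar2 was 1.13 without cluster 6, and Ffar4 was -1.20 thinned, -1.17 without TMM scaling and -1.08 in male cells. In Irx over neither, calls were gained for Ffar1 in male cells at -1.05, Ffar2 in female cells at -1.17 and Ffar4 in male cells at 1.05. Depth limits Ffar3 most, with 61 and 22 UMIs in the 2 libraries.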
